A study of Mus musculus with 9 samples.

Results

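Sets of transcription factors and enzymes mark the forebrain neurons that release the inhibitory transmitter GABA, and 9 of these genes are described here in the newborn mouse dorsal telencephalon. They are Dlx1, Dlx2, Dlx5 and Dlx6, which encode homeodomain factors, Sp8 and Sp9, which encode zinc finger factors, Gad1 and Gad2, which encode the enzymes that make GABA, and Lhx6, which encodes a LIM homeodomain factor. The genes were taken by name, and all 9 were found among the 41128 genes of the count table and among the 15271 genes tested. The series compared Tcf4 genotypes in the dorsal telencephalon, the forebrain region that gives rise to cortex and hippocampus, of newborn (postnatal day 0) mice of the strain B6:129SF2/J. There were 3 libraries labelled TCF4 knockout (KO), 3 labelled TCF4 heterozygote (Het) and 3 labelled wild type (WT). The sources used here do not state which part of Tcf4 was removed, how the mutation was made or whether each library came from a separate animal. The p-values therefore set genotype differences against the variation between these libraries, which may be technical.

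Cortical GABAergic interneurons are not born in the dorsal telencephalon. They arise in the ganglionic eminences of the ventral telencephalon and migrate into the cortex. Dlx1 and Dlx2 act early in this lineage and turn on Dlx5 and Dlx6. Lhx6 is kept on in interneurons from the medial ganglionic eminence (MGE), and Sp8 marks many of those from the caudal ganglionic eminence (CGE). Sp8 and Sp9 also act in olfactory bulb interneurons, and Sp9 and the Dlx genes in neurons of the striatum, which lies next to the cortex and is GABAergic as well. Tcf4 encodes a helix-loop-helix factor of the widely expressed E-protein class. Dimers of such factors bind the E-box, CANNTG.

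Of the 9 genes, 6 lie on chromosome 2 in build mm10. Dlx1 (71528113 to 71533981, plus strand) and Dlx2 (71543408 to 71546754, minus strand) face each other across 9426 bases. Sp9 (73271925 to 73284706, plus), Gad1 (70553072 to 70602014, plus), Gad2 (22622205 to 22693874, plus) and Lhx6 (36081953 to 36105408, minus) are elsewhere on that chromosome. Dlx6 (6863334 to 6868568, plus) and Dlx5 (6877805 to 6882085, minus) face each other across 9236 bases of chromosome 6, and Sp8 (118846329 to 118852576, plus) is on chromosome 12. The sources used here do not say whether the counting used strand. This touches 3 of the genes, because 335 exonic bases of Dlx1 (6.21%) overlap the antisense gene Dlx1as, 270 of Sp9 (5.35%) overlap Cir1 and 104 of Dlx6 (4.38%) overlap Dlx6os2. Words of 31 bases that also occur in other genes make up 9.8% of those of Dlx6 (mainly in Dlx6os2) and 7.21% of Sp9 (Cir1). They make up 5.84% of Dlx1 (Dlx1as), 4.01% of Gad1 (the pseudogene Gad1-ps) and at most 2.26% of each other gene of the 9.

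The 250 bases before an annotated transcript start were read for E-boxes because Tcf4 encodes an E-box binding factor, and 3 windows are shown for genes that differed between genotypes. RefSeq (GRCm38.p6, the assembly of mm10) gave 11 such windows for 7 of the genes, Dlx5 and Dlx6 being the others. E-boxes, which read the same way on both strands as CANNTG, were present in 6 of these 11 windows and in 66.2% of the 32851 windows of the whole table. The minus strand is printed for Dlx2 and the first of 3 Lhx6 starts and the plus strand for Sp9, each 5′ to 3′ and ending at the transcript start, with E-boxes in capitals. The final base of the Sp9 window lies in an annotated exon.
Dlx2, chr2:71546755-71547004: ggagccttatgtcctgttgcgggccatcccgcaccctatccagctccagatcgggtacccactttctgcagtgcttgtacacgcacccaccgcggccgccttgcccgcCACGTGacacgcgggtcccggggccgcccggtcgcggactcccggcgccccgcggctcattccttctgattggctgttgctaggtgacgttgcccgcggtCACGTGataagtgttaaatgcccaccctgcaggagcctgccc
Sp9, chr2:73271676-73271925: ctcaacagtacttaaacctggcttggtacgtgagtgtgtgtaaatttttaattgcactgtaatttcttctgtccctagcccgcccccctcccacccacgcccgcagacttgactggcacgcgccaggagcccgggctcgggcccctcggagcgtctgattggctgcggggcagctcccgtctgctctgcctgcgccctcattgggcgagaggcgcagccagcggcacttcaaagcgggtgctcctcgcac
Lhx6, chr2:36105409-36105658: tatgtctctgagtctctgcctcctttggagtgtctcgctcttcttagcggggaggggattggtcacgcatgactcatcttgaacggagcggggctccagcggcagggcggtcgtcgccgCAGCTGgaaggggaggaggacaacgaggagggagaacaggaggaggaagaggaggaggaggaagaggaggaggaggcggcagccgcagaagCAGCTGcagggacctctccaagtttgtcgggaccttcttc
The windows of Dlx2 and of the first Lhx6 start had 2 E-boxes each and that of Sp9 had none. Both E-boxes of Dlx2 read CACGTG, which occurs in 6.02% of all windows, and both at the first Lhx6 start read CAGCTG, which occurs in 13% of all windows. Of the other windows, the second and the third Sp8 starts held CAATTG and CAAGTG, Gad1 held CACCTG and Gad2 held CATCTG, while Dlx1, the first Sp8 start and the second and the third Lhx6 starts held none. All 250 bases of the Dlx1 window lie in annotated exons. So do 122 bases at Gad2, 87 at Gad1, 21 at the third Sp8 start and 14 at the second Lhx6 start. The Dlx1 and Gad1 windows, and those of the later Sp8 and Lhx6 starts, lie inside the gene bodies given above. The homeodomain core TAATTA occurred in 4.84% of all windows and in 1 of the 11, at the third Sp8 start. A match is a description of the letters and not a measured binding site.

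Total counts were 26355671 to 29445788 in KO, 24008445 to 29398411 in Het and 22291940 to 23813314 in WT libraries. Tcf4 itself was counted at 638, 633 and 611 CPM (counts relative to the library total) in KO, 822, 652 and 719 CPM in Het and 712, 728 and 584 CPM in WT libraries. The log2 fold change was -0.10 for KO versus WT (SE 0.09, edgeR adjusted p = 0.36) and 0.12 for Het versus WT (SE 0.09, adjusted p = 0.33), so the gene-level count does not check the labels. Without WT replicate 3 the KO versus WT difference was -0.20 with adjusted p = 0.046. KO replicate 3 had 2730 Xist and 2 Ddx3y counts, while the other 8 libraries had at most 3 Xist and at least 794 Ddx3y counts. WT replicate 2 had 1926 Fos counts, against 84 and 95 in the other WT libraries. Processed pseudogenes took 0.0647% to 0.0782% of counts in KO, 0.0745% to 0.0834% in Het and 0.225% to 0.276% in WT libraries, and the first principal component (64.1% of variance) set WT libraries (-64.5 to -54.3) apart from KO (35.5 to 39.0) and Het libraries (20.3 to 24.9). Whether these differences bear on the values below was not tested. Tbr1, a cortical factor set against the tissue label, was at 254 ± 9.31 CPM in KO, 247 ± 16.7 CPM in Het and 253 ± 32.1 CPM in WT libraries (mean ± SD, n = 3 each). It is 1 of 18 tested cortical glutamatergic genes. Of these, 11 rose and 4 fell in each comparison with WT (edgeR adjusted p under 0.05). The level of Tbr1 alone therefore does not show that the tissue was alike between genotypes.

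Most of the 9 genes were lower in both mutant genotypes, but Dlx1 did not pass the test and Lhx6 was higher. In KO versus WT libraries 7 genes fell (Dlx2, Dlx5, Dlx6, Sp8, Sp9, Gad1 and Gad2) and 1 rose (Lhx6), by edgeR's quasi-likelihood test at adjusted p under 0.05. Over all genes tested, 52.8% passed in that comparison, 26.3% lower and 26.5% higher. The same 7 genes fell and Lhx6 rose in Het versus WT libraries, where 45.9% of all genes passed, 23.4% lower and 22.5% higher. Falls of at least 2-fold were seen for 4 of the 9 genes in KO versus WT, against 6.12% of all genes tested, and for 5 in Het versus WT, against 4.29%. Every KO library was below every WT library for 8 of the 9 genes, including Dlx1, which did not pass (30.8% of all genes), and above for Lhx6 (31.9% of all genes). Every Het library was below every WT library for 7 (26.8% of all genes) and above for Lhx6 (26.8% of all genes). Both comparisons use the same WT libraries. Without KO replicate 3 the KO versus WT calls were the same apart from Gad2, and without WT replicate 2 all 8 were the same. The median log2 fold change of the 9 genes was -0.85 for KO versus WT, beside 0.009 over all genes tested, and -1.01 for Het versus WT, beside 0.013. Their summed level was 370 to 394 CPM in KO, 377 to 391 CPM in Het and 481 to 519 CPM in WT libraries. In bulk tissue, fewer cells of a type and less RNA per cell cannot be told apart.

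**Figure D1:**
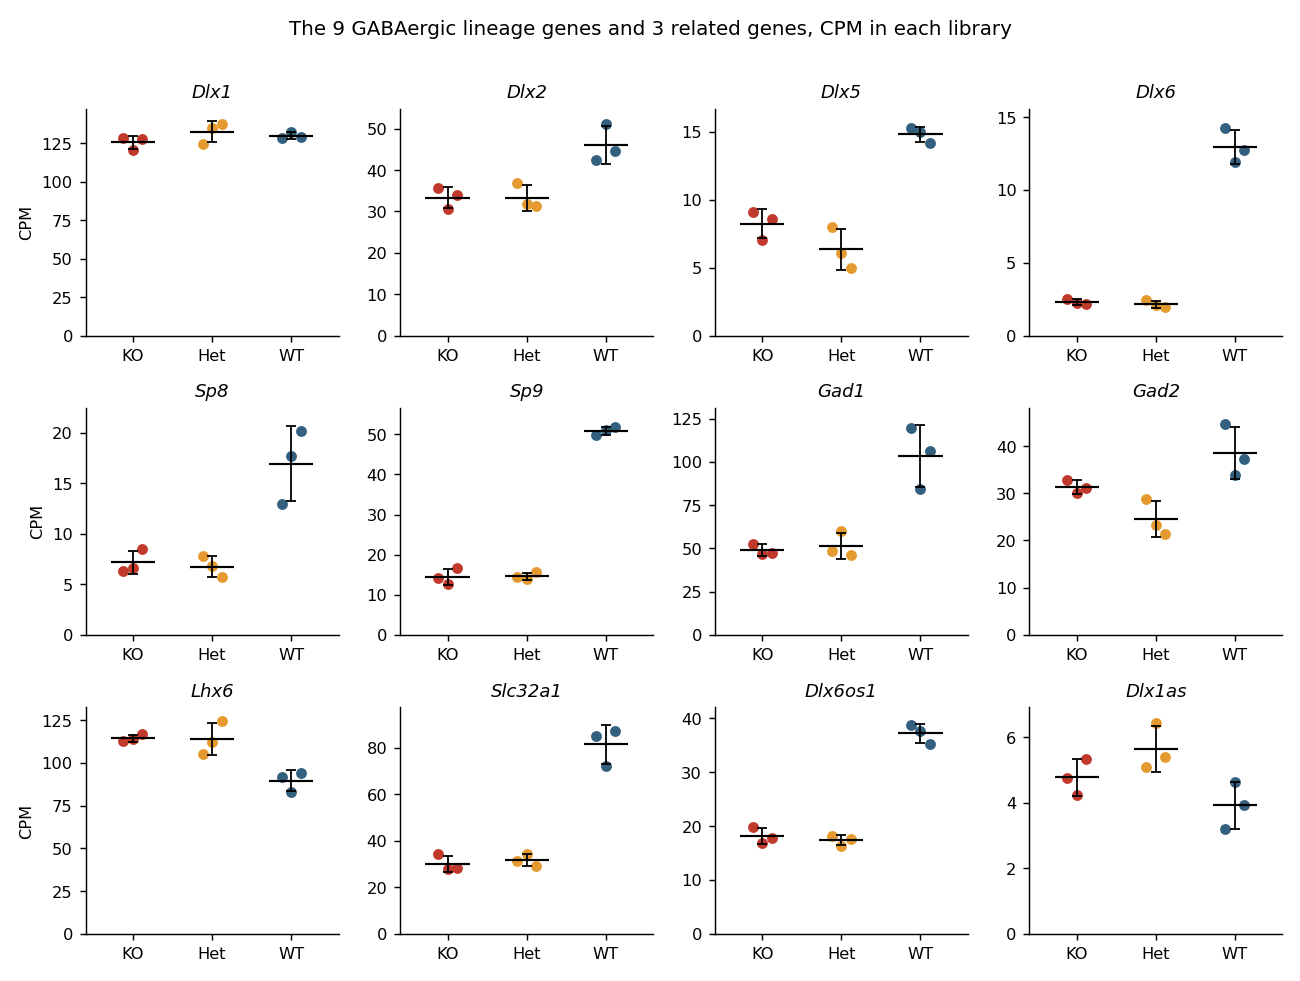
Level of the 9 genes and of Slc32a1, Dlx6os1 and Dlx1as in CPM (linear axes from 0), with KO, Het and WT libraries as points and the mean ± SD of 3 libraries as bars. Dlx1 lay between 121 and 138 CPM in all 9 libraries, Lhx6 was higher in every KO and Het library than in any WT library, and Dlx6 and Sp9 were far lower in KO and Het than in WT libraries.

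Dlx1 and Dlx2 share a locus and a place at the top of the lineage, yet only Dlx2 passed the test. Dlx1 was at 128, 121 and 128 CPM in KO, 125, 135 and 138 CPM in Het and 128, 132 and 129 CPM in WT libraries. The KO libraries ended just below the WT libraries at 128 CPM, and the Het range spanned that of WT. Its log2 fold change was -0.05 for KO versus WT (SE 0.05, adjusted p = 0.44) and 0.03 for Het versus WT (SE 0.05, adjusted p = 0.68). Dlx2 had 35.6, 30.5 and 34.0 CPM in KO, 36.9, 31.8 and 31.2 CPM in Het and 42.3, 51.2 and 44.6 CPM in WT libraries. Every KO and Het library was below every WT library, and the KO and Het ranges overlapped. The fold change of Dlx2 was -0.46 on the log2 scale for KO versus WT (SE 0.09, adjusted p = 0.00032) and -0.47 for Het versus WT (SE 0.09, adjusted p = 0.00042).

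Dlx5 and Dlx6, which act after Dlx1 and Dlx2 in the lineage, were lower in both mutant genotypes. Dlx5 was at 9.10, 7.05 and 8.57 CPM in KO, 7.99, 6.09 and 4.98 CPM in Het and 15.3, 15.0 and 14.2 CPM in WT libraries. All mutant libraries were below all WT libraries, with a log2 fold change of -0.85 for KO versus WT (SE 0.14, adjusted p = 0.00012) and -1.23 for Het versus WT (SE 0.15, adjusted p = 5.2e-06). Dlx6 changed the most of the 9 genes in both comparisons, at 2.51, 2.21 and 2.19 CPM in KO, 2.42, 2.13 and 1.94 CPM in Het and 14.2, 11.9 and 12.7 CPM in WT libraries. It was 5.61-fold lower in KO than in WT (log2 -2.49, SE 0.14, adjusted p = 4.7e-10) and 6.0-fold lower in Het than in WT (log2 -2.58, SE 0.14, adjusted p = 5.8e-10).

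The noncoding neighbours of the Dlx genes were counted too. Dlx6os1, a noncoding RNA gene on the opposite strand whose body (6820189 to 6871592) spans Dlx6, was at 19.8, 16.9 and 17.8 CPM in KO, 18.2, 16.3 and 17.6 CPM in Het and 38.7, 37.7 and 35.2 CPM in WT libraries. Its log2 fold change was -1.03 for KO versus WT (SE 0.08, adjusted p = 1.8e-08) and -1.10 for Het versus WT (SE 0.08, adjusted p = 1.6e-08). Dlx1as, antisense to Dlx1, averaged 4.77 ± 0.560 CPM in KO, 5.64 ± 0.704 CPM in Het and 3.92 ± 0.713 CPM in WT libraries (SD, n = 3 each). It did not pass for KO versus WT (log2 0.29, SE 0.17, adjusted p = 0.16) and was higher for Het versus WT (log2 0.53, SE 0.16, adjusted p = 0.015), a call that was lost without Het replicate 2 or WT replicate 1, with adjusted p up to 0.076. Dlx3 and Dlx4, the other Dlx genes of the list, had at most 1 count in any library, Dlx6os2 had at most 4 and Gad1os, antisense to Gad1, at most 8, and these 4 genes were not tested.

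Sp8 and Sp9 both fell in both comparisons with WT. Sp8 was at 6.35, 6.63 and 8.50 CPM in KO, 7.75, 6.8 and 5.67 CPM in Het and 12.9, 17.7 and 20.2 CPM in WT libraries. The WT libraries were widely spread but lay above all mutant libraries, and the log2 fold change was -1.24 for KO versus WT (SE 0.17, adjusted p = 2.9e-05) and -1.33 for Het versus WT (SE 0.17, adjusted p = 2.5e-05). Sp9 had 14.1, 12.7 and 16.7 CPM in KO, 14.3, 13.9 and 15.6 CPM in Het and 49.9, 51.2 and 51.8 CPM in WT libraries. The WT libraries had an SD of 1.0 CPM, and Sp9 was 3.51-fold lower in KO than in WT (log2 -1.81, SE 0.09, adjusted p = 8e-11) and 3.49-fold lower in Het than in WT (log2 -1.80, SE 0.09, adjusted p = 1.5e-10). Of the related zinc finger factors, 4 of 5 tested moved the other way. Over all genes tested, 26.5% rose in KO versus WT and 22.5% in Het versus WT. Of 5 tested Sp genes outside the pair, Sp1, Sp2, Sp3 and Sp5 rose in both comparisons and none fell, with Sp1 at 0.68 (SE 0.09, adjusted p = 5.6e-06) and Sp5, a Wnt target in the mouse embryo, at 1.73 (SE 0.21, adjusted p = 3.2e-06) on the log2 scale for KO versus WT. For KO versus WT, Sp4 was at -0.15 (SE 0.08, adjusted p = 0.13). Sp4 was also at -0.15 for Het versus WT (adjusted p = 0.14) and passed without Het replicate 1, with adjusted p = 0.02. Sp6 and Sp7 were too low to test.

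Both glutamate decarboxylase genes were lower in the mutants. Gad1, whose product makes most of the GABA in the newborn brain, was at 52.8, 46.5 and 47.1 CPM in KO, 48.4, 59.8 and 45.9 CPM in Het and 119, 84.4 and 106 CPM in WT libraries. All mutant libraries were below all WT libraries, by 2.12-fold for KO versus WT (log2 -1.08, SE 0.14, adjusted p = 0.00021) and 2.01-fold for Het versus WT (log2 -1.01, SE 0.14, adjusted p = 0.00045). Gad2, whose product is found mainly at nerve terminals, had 32.8, 30.05 and 31.1 CPM in KO, 28.9, 23.3 and 21.4 CPM in Het and 44.6, 33.9 and 37.2 CPM in WT libraries. The KO libraries lay between the Het and the WT libraries without overlap. The log2 fold change of Gad2 was -0.30 for KO versus WT (SE 0.11, adjusted p = 0.037) and -0.66 for Het versus WT (SE 0.11, adjusted p = 0.00035). Gad2 no longer passed in KO versus WT when KO replicate 1 (adjusted p = 0.054), KO replicate 2 (0.11), KO replicate 3 (0.089), WT replicate 1 (0.17) or WT replicate 3 (0.059) was left out.

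Lhx6 was the 1 gene of the 9 that rose. It was at 113, 114 and 117 CPM in KO, 105, 112 and 124 CPM in Het and 91.8, 82.8 and 94.3 CPM in WT libraries. Every mutant library was above every WT library, by 1.28-fold for KO versus WT (log2 0.35, SE 0.06, adjusted p = 0.00018) and 1.27-fold for Het versus WT (log2 0.35, SE 0.06, adjusted p = 0.00029). Among the other LIM homeobox and LIM-only genes, 6 of 13 tested rose and 5 fell in KO versus WT, with Lmx1a at 2.92 (SE 0.47, adjusted p = 7.6e-05) and Lhx1 at 1.36 (SE 0.25, adjusted p = 0.0002) on the log2 scale. In Het versus WT 6 of the 13 rose and 3 fell. Over all genes tested, 26.5% rose and 26.3% fell in KO versus WT, and 22.5% rose and 23.4% fell in Het versus WT. Lhx8, which acts with Lhx6 in the MGE lineage, had 1 count over the 3 KO libraries, 1 over the 3 Het libraries and 358 over the 3 WT libraries, where it ranged from 57 to 180. Lhx6 itself rose, so the Lhx8 counts are not a measure of the cells that express Lhx6. Which cells held the Lhx8 RNA was not tested.

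**Figure D2:**
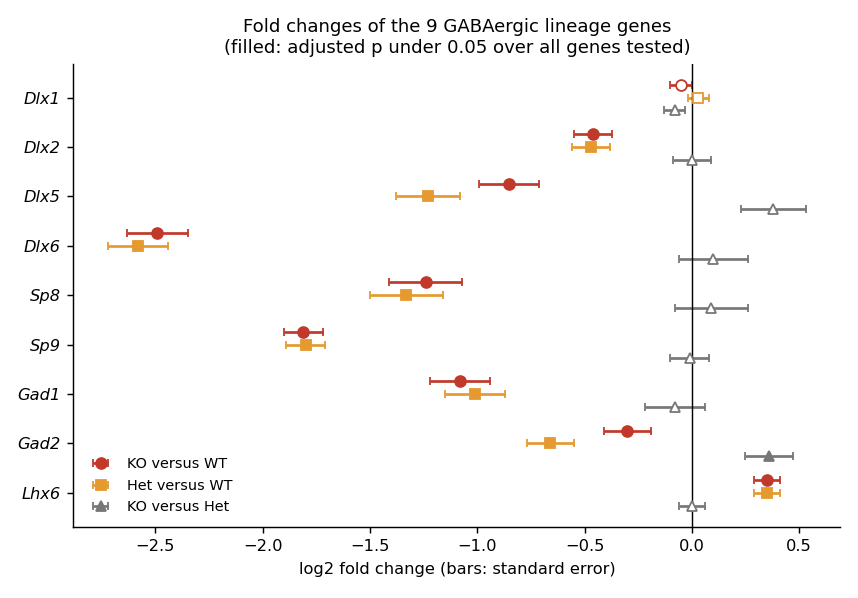
Log2 fold change of each of the 9 genes for KO versus WT, Het versus WT and KO versus Het, with the standard error as bars and filled symbols for adjusted p under 0.05 (edgeR). Dlx6 has the most negative values (-2.49 and -2.58), Lhx6 is positive in both comparisons with WT (0.35 each), and the KO versus Het values lie between -0.08 and 0.38.

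The mutant genotypes were also compared with each other. KO versus Het passed the test for 1 of the 9 genes, a share near the background of 16.7% of all genes tested (8.3% higher and 8.44% lower). That gene was Gad2, higher in KO than in Het by 0.36 on the log2 scale (SE 0.11, adjusted p = 0.045), and the call was lost without any 1 of the KO libraries, Het replicate 2 or 3 or WT replicate 3, with adjusted p between 0.062 and 0.16. Dlx5 was at 0.38 (SE 0.15, adjusted p = 0.094) and passed without Het replicate 1, at 0.57 with adjusted p = 0.011. The remaining 7 genes had log2 differences between -0.08 and 0.10, with standard errors from 0.05 for Dlx1 to 0.17 for Sp8. These values do not show that KO and Het levels are equal.

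The order of the genes by level per gene length, in FPKM (fragments scaled to gene length and library total, as deposited), also differed between genotypes. Dlx1 was highest in every library, at 68.1 to 73.9 FPKM in KO, 71.6 to 79.7 FPKM in Het and 71.3 to 72.7 FPKM in WT libraries. Lhx6 came next in the mutants, at 47.7 to 50.9 FPKM in KO and 45.6 to 54.1 FPKM in Het libraries, and below Gad1 in WT, at 34.2 to 39.2 FPKM. Gad1 followed in the mutants, at 24.1 to 27.3 FPKM in KO and 24.4 to 31.2 FPKM in Het libraries, and came after Dlx1 in WT, at 42.5 to 61.6 FPKM. Sp8 was lowest on this scale in all 3 genotypes, at 1.41 to 1.94 FPKM in KO, 1.29 to 1.76 FPKM in Het and 2.86 to 4.40 FPKM in WT libraries. The order rests on the length behind each deposited value, which was not compared with the annotated exons, and another length could change it. In CPM, not scaled to length, Dlx6 had the lowest mean, at 2.30 CPM in KO, 2.16 CPM in Het and 12.95 CPM in WT libraries. Sp8 was then at 7.16, 6.74 and 16.9 CPM. Neighbours whose ranges overlapped were Dlx5 and Sp9 in KO libraries (5.11 to 6.59 and 4.89 to 6.61 FPKM) and in Het libraries (3.70 to 5.91 and 5.41 to 6.15 FPKM). In WT libraries they were Dlx6, Gad2 and Dlx5 (10.8 to 13.2, 10.2 to 13.7 and 10.1 to 11.04 FPKM).

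**Figure D3:**
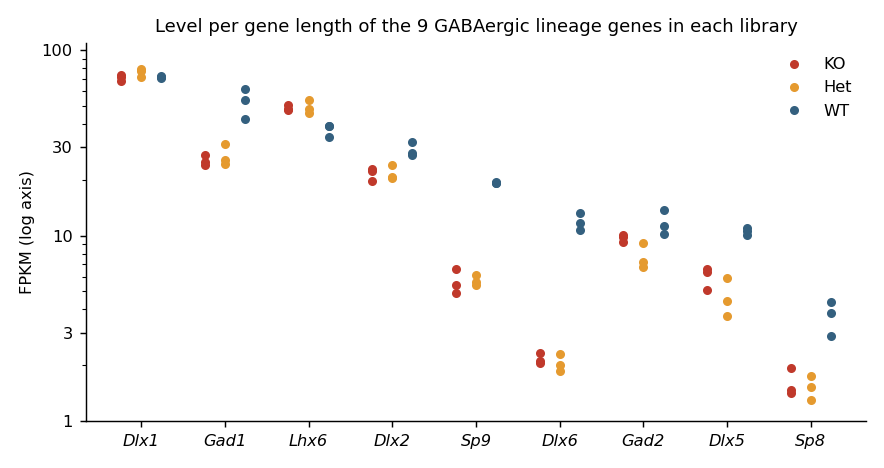
FPKM of the 9 genes in each KO, Het and WT library on a log axis, ordered by the mean level in WT libraries. Dlx1 stays at 68.1 to 79.7 FPKM throughout, and Dlx6 is at 1.85 to 2.34 FPKM in KO and Het libraries but at 10.8 to 13.2 FPKM in WT libraries.

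Whether genes of a pair changed by the same factor was tested on log2 ratios of their counts within a library, where depth cancels. The test was an exact permutation test over the 1680 ways of assigning 9 libraries to the genotypes, two-sided, with a smallest possible p of 0.0036 and adjustment over 8 ratios. Dlx6 over Dlx5 was -1.82 ± 0.15 in KO, -1.53 ± 0.18 in Het and -0.20 ± 0.12 in WT libraries (SD, n = 3 each, exact p = 0.0071, adjusted p = 0.019). Dlx1 over Dlx2 was 1.91 ± 0.07 in KO, 1.99 ± 0.21 in Het and 1.5 ± 0.12 in WT libraries (exact p = 0.018, adjusted p = 0.036). In both Dlx pairs every mutant library lay outside the WT range. Gad1 over Gad2 was 0.64 ± 0.04 in KO, 1.07 ± 0.31 in Het and 1.42 ± 0.10 in WT libraries (exact p = 0.0071, adjusted p = 0.019), and the Het range, 0.75 to 1.36, overlapped that of WT. Sp9 over Sp8 was 1.02 ± 0.11 in KO, 1.12 ± 0.30 in Het and 1.61 ± 0.30 in WT libraries, which did not pass (exact p = 0.068, adjusted p = 0.078).

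Lhx6 was set against Dlx1 and Gad1 in the same way. Lhx6 over Dlx1 was -0.13 ± 0.05 in KO, -0.22 ± 0.06 in Het and -0.54 ± 0.12 in WT libraries (SD, n = 3 each, exact p = 0.0071, adjusted p = 0.019). Lhx6 over Gad1 was 1.23 ± 0.12 in KO, 1.16 ± 0.27 in Het and -0.19 ± 0.18 in WT libraries (exact p = 0.025, adjusted p = 0.04), so that Lhx6 had more counts than Gad1 in every mutant library and fewer in every WT library. Gad1 over Slc32a1 was 0.70 ± 0.06 in KO, 0.69 ± 0.09 in Het and 0.34 ± 0.13 in WT libraries (exact p = 0.032, adjusted p = 0.043), and Sp8 over Gad1 did not pass (exact p = 0.59). With 8 libraries, the adjusted p of Dlx6 over Dlx5 and of Lhx6 over Dlx1 stayed between 0.021 and 0.043. The call for Dlx1 over Dlx2 was lost without any library other than Het replicate 1 (adjusted p up to 0.09) and that for Gad1 over Gad2 without any KO or WT library (up to 0.069). Lhx6 over Gad1 was lost without any library other than Het replicates 1 and 3 (up to 0.064), and Gad1 over Slc32a1 without any of the 9 (0.051 to 0.095). Between 2 genotypes of 3 libraries the exact p cannot go below 0.10.

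**Figure D4:**
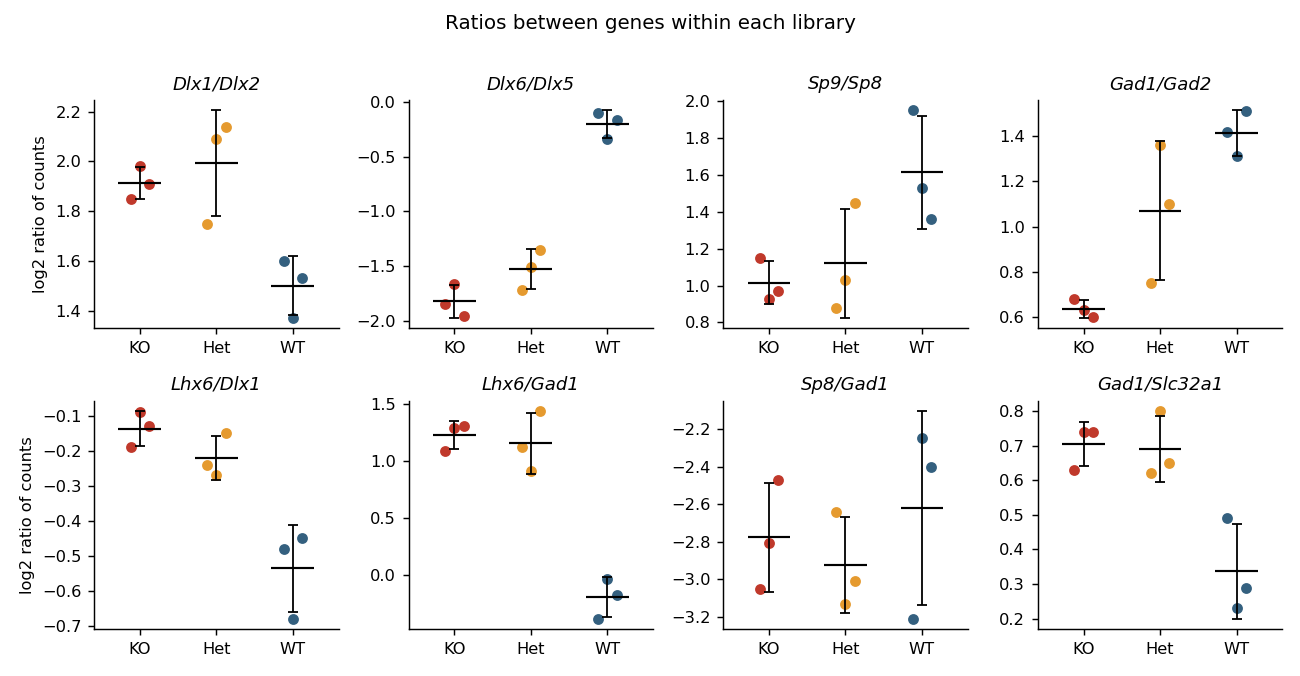
Log2 ratio of counts of gene pairs in each KO, Het and WT library, with the mean ± SD of 3 libraries (each panel has its own axis range). Dlx6 over Dlx5 is near -0.20 in WT libraries and at -1.35 or below in all mutant libraries, and Lhx6 over Gad1 is above 0 in all mutant libraries and below 0 in all WT libraries.

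Genes that handle GABA downstream of Gad1 and Gad2 also fell. Of 9 tested genes of GABA synthesis and transport outside the pair, 7 fell in KO versus WT and 6 in Het versus WT, and none rose, with a median log2 fold change of -1.06 for KO and -0.67 for Het versus WT (0.009 and 0.013 over all genes tested). The share of all genes tested that fell was 26.3% in KO versus WT and 23.4% in Het versus WT. Slc32a1, which loads GABA into synaptic vesicles, was at 30.1 ± 3.52 CPM in KO, 31.7 ± 2.56 CPM in Het and 81.4 ± 8.27 CPM in WT libraries (SD, n = 3 each), a log2 fold change of -1.44 for KO versus WT (SE 0.09, adjusted p = 5.1e-09). Of its 31-base words, 24.2% also occur in other genes, mainly Gm14205 on the opposite strand. Abat, which breaks GABA down, was at -1.14 (SE 0.07, adjusted p = 5.3e-10) and Aldh5a1, the next enzyme, at -0.50 (SE 0.08, adjusted p = 7.9e-05) on the log2 scale for KO versus WT. Slc6a11, a GABA transporter of astrocytes, was at 73.4 ± 6.24 CPM in KO, 108 ± 4.21 CPM in Het and 251 ± 6.51 CPM in WT libraries and differed in all 3 comparisons, at -0.56 for KO versus Het (SE 0.06, adjusted p = 5.7e-06). Aldh9a1 and Slc38a1 did not pass for KO versus WT, at -0.08 and -0.12, Slc6a12 was too low to test, and the fall of Slc6a13 (log2 -2.63, SE 0.75, adjusted p = 0.0079) was lost without WT replicate 1, with adjusted p up to 0.13.

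The gene lists for the lineages that use the 9 genes moved in mixed directions, and none of the counts below includes the 9 genes. Over all genes tested, 26.3% fell and 26.5% rose in KO versus WT, and 23.4% fell and 22.5% rose in Het versus WT. Of 22 tested MGE-derived interneuron genes, 14 fell and 4 rose in KO versus WT (median -0.46) and 10 fell and 4 rose in Het versus WT (median -0.13). Nkx2-1, the factor that specifies the MGE, had 73 counts over the KO libraries, 73 over the Het libraries and 580 over the WT libraries (log2 -3.32 for KO versus WT, SE 0.24, adjusted p = 1e-08). Whether its RNA came from cortical interneurons or from other cells was not tested. Tac1, a neuropeptide gene also used in the striatum, was at -2.98 (SE 0.34, adjusted p = 9.7e-05), and Nxph1, a synaptic adhesion gene of MGE interneurons, averaged 14.4 ± 2.69 CPM in KO, 38.5 ± 4.51 CPM in Het and 51.6 ± 3.54 CPM in WT libraries. Nxph1 was -1.84 for KO versus WT (SE 0.13, adjusted p = 1.1e-07) and -1.42 for KO versus Het (SE 0.13, adjusted p = 8.4e-06).

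Of 14 tested CGE-derived interneuron genes, 6 fell and 4 rose in each comparison with WT, with a median of -0.33 for KO and 0.08 for Het. Synpr, a synaptic vesicle gene, was at -2.22 (SE 0.10, adjusted p = 1.2e-11) and Adarb2, a CGE interneuron marker, at -1.34 (SE 0.11, adjusted p = 7.3e-08) on the log2 scale for KO versus WT. Htr3a, the serotonin receptor channel of CGE interneurons, was higher, at 7.22 ± 0.282 CPM in KO, 12.5 ± 3.87 CPM in Het and 4.13 ± 0.458 CPM in WT libraries. Cck fell in KO versus WT (log2 -0.63, SE 0.10, adjusted p = 0.00016) but was at -0.01 in Het versus WT (adjusted p = 0.92).

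Genes that depend on Dlx factors in GABAergic neurons of the mouse gave 9 lower and 4 higher of 18 tested in KO versus WT (median -0.12) and 7 lower and 6 higher in Het versus WT (median 0.00). The number that rose in KO versus WT was 2 to 3 with 1 library left out, so the 4 did not hold in any such fit. It was 2 without any 1 of the KO libraries or without WT replicate 3. Zfp503, a striatal factor, was at -1.95 (SE 0.15, adjusted p = 1.8e-08) for KO versus WT. The receptors that guide migrating interneurons rose, Cxcr4 from a chemokine pathway at 1.01 (SE 0.15, adjusted p = 0.00023) and Ackr3, its partner, at 1.04 (SE 0.13, adjusted p = 1e-05). Bulk counts do not show which cells held this RNA, so the rise of these receptors is not a measure of migrating interneurons. Cxcr4 was at 37.3 ± 2.67 CPM in KO, 42.1 ± 8.49 CPM in Het and 18.5 ± 2.86 CPM in WT libraries (SD, n = 3 each). Erbb4, the neuregulin receptor of interneurons, fell by 0.54 on the log2 scale in KO versus WT (SE 0.06, adjusted p = 3e-06).

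Striatal projection neuron genes had the largest share of falls among the lists. Of 25 tested, 23 fell in KO versus WT (median -2.12) and 25 in Het versus WT (median -2.39), and none rose. Their summed level was 921 to 937 CPM in KO, 882 to 934 CPM in Het and 1759 to 1888 CPM in WT libraries. Isl1, a factor of striatal neurons, had 7 counts over the KO libraries, 3 over the Het libraries and 836 over the WT libraries. Rxrg, a retinoid receptor of the striatum, was at 2.51 ± 0.468 CPM in KO, 2.61 ± 0.280 CPM in Het and 51.5 ± 3.70 CPM in WT libraries, and Drd2, the dopamine receptor of indirect-pathway neurons, at 0.889 ± 0.154 CPM in KO, 1.14 ± 0.388 CPM in Het and 12.3 ± 1.29 CPM in WT libraries. The 7 fallen genes of the 9 thus fell in the same libraries in which striatal genes fell, and the part of striatal tissue in their values was not tested.

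**Figure D5:**
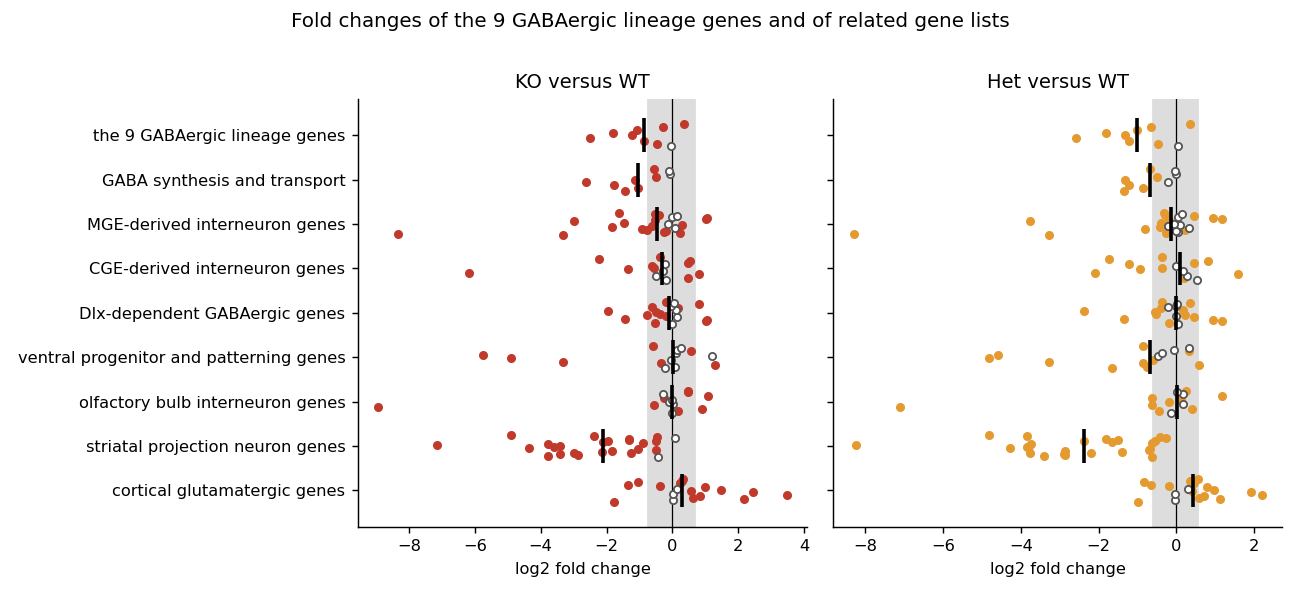
Log2 fold change of every tested gene of the 9 and of related gene lists for KO versus WT and Het versus WT, filled where adjusted p is under 0.05 (edgeR), with a black bar at each median and a grey band from the 10th to the 90th percentile of all genes tested. The medians of striatal genes lie at -2.12 and -2.39 and those of the 9 genes at -0.85 and -1.01.

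Ventral progenitor and patterning genes gave 5 lower and 2 higher of 14 tested in KO versus WT (median 0.01) and 8 lower and 2 higher in Het versus WT (median -0.68), of which 1 was higher without WT replicate 3. Six3, a patterning factor that also acts in striatal neurons, had 50 counts over the KO, 51 over the Het and 1200 over the WT libraries. Olfactory bulb interneuron genes gave 3 lower and 5 higher of 13 tested in KO versus WT and 5 lower and 4 higher in Het versus WT. Among the risen were Trp73 at 1.07 and Pax6 at 0.89 for KO versus WT (SE 0.11 and 0.08, adjusted p = 7.2e-07 and 4.8e-08). Neither gene is confined to bulb interneurons, so their rise is not a measure of those cells. Th, a dopamine synthesis gene used in bulb interneurons, had 0 counts over the KO, 1 over the Het and 158 over the WT libraries (37 to 79 in each). It was named after its value was seen, and its counts are not a measure of bulb interneurons either. Of 18 tested cortical glutamatergic genes, 11 rose and 4 fell in both comparisons with WT, among the risen the progenitor factors Neurog2 (log2 3.47 for KO versus WT, SE 0.11, adjusted p = 3.5e-13) and Eomes (2.44, SE 0.14, adjusted p = 1.3e-07). Slc17a7, which loads glutamate into vesicles of mature neurons, fell (log2 -1.77, SE 0.06, adjusted p = 3.5e-13).

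Markers of other cells in the dissection gave 6 lower and 0 higher of 9 microglia genes in KO versus WT and 7 lower in Het versus WT, with a summed level of 67.1 to 71.4 CPM in KO, 58.4 to 64.5 CPM in Het and 106 to 121 CPM in WT libraries. Endothelial genes gave 3 higher and 1 lower of 8 in KO versus WT and 6 higher and 1 lower in Het versus WT, with a summed level of 216 to 222 CPM in KO, 221 to 234 CPM in Het and 217 to 221 CPM in WT libraries. Choroid plexus genes gave 3 higher of 7 tested in KO versus WT and 2 higher in Het versus WT, with a summed level of 10.2 to 29.97 CPM in KO, 2.34 to 20.3 CPM in Het and 3.06 to 5.19 CPM in WT libraries. With 1 library left out, 2 to 4 choroid plexus genes were higher in KO versus WT and 1 (without WT replicate 2) to 2 in Het versus WT, and with a filter of 1 CPM in 3 libraries 1 and 0 were higher. No microglia, endothelial or striatal gene of the lists was at 0 in all libraries of a genotype. The part of these cells in the values of the 9 genes was not tested.

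Likeness of pattern was taken as Pearson's r of log2 CPM over the 9 libraries, which share 3 genotypes and fall into separate genotype groups, so r is given as a description. High values were common: of 12034 genes compared, r was above 0.9 for 1164 with Dlx6, 1146 with Sp9 and 962 with Gad1. The genes most like Dlx6 were Glo1 (r = 0.997), Lrtm2 (0.997) and the microglia gene Cx3cr1 (0.995). Those most like Sp9 were Ikzf1 (0.998), the pseudogene Atp6v0c-ps2 (0.996) and Isl1 (0.994), and Ikzf1 and Isl1 are on the striatal list. Gad1 was closest to Slc12a5 (0.993), Ache (0.991) and Creg1 (0.991), and Lhx6 to Unc13b (0.985), Mest (0.982) and Cdc16 (0.981). Dlx2 was closest to Entpd5 (0.982), Dlx5 to Mfap3l (0.988), Sp8 to Entpd3 (0.979) and Gad2 to Kctd16 (0.955). For Dlx1, whose level hardly varied, the closest gene was Scamp2 at 0.922.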

How the data were processed

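RNA-seq of newborn dorsal telencephalon gave 9 libraries, 3 per Tcf4 genotype. Per-gene read counts, not normalized, were deposited by the authors, with a second table of FPKM values, which equal the counts divided by 1 length per gene and by library total (largest log2 spread between libraries 1.4e-14) and are not an independent measurement. The submitters' processing notes name HTSeq 0.6.1, DESeq 1.10.1, TopHat2 2.0.9 and Bowtie2 2.0.6 and the build mm10, with no role for each. Library preparation used an NEBNext Ultra kit, per the labels' protocols.

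Counts were fitted with edgeR 4.0.16 in R 4.3.3 (filterByExpr, minimum count 10 and minimum total 15, leaving 15271 of 41128 genes; TMM; robust quasi-likelihood fit of all 9 libraries, 6 residual degrees of freedom; Benjamini-Hochberg over all genes tested, threshold 0.05). Fold changes are on the log2 scale, their standard errors (SE) are the fold change over the square root of F, and CPM uses TMM-scaled library sizes. Total counts of 22291940 to 29445788 set the depth. Ratios are log2 of counts plus 0.5. Symbols and positions came from GENCODE M21 (40254 genes paired), figures from Python 3.11.15 and matplotlib 3.10.9. The fit was tested on simulated data. Alternatives were other scaling factors and filters, DESeq2 1.42.0, a replicate block, fits of only the genotypes compared, leaving out each library, and limma 3.58.1 on log2(FPKM + 1).

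The 9 genes, the 14 other lists and the tests were chosen with earlier results of these data known. Named were all 9 genes, the genes of the Dlx, Sp and GABA lists and, of other lists, up to 4 with the largest KO versus WT fold change among those with adjusted p under 0.05 and a mean log2 CPM of at least 0, of which part is printed, and the genes of highest r (mean log2 CPM of at least 1). Some list genes are not reported here. Erbb4, Tbr1 and Th were named after their values were seen, as were the library controls.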

Additional observations from a re-analysis of the deposited data

How the results depend on the processing

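The call of every one of the 9 genes in Het versus WT held its direction and its side of the threshold in all 153 combinations of gene and alternative, and in KO versus WT in 146 of 153, the other 7 being Gad2. Gad2 was at -0.28 (adjusted p = 0.05) with upper-quartile factors and -0.23 (0.097) with limma on FPKM in KO versus WT, and -0.38 to -0.19 with 1 library left out. Leaving out 1 library gave 7 to 8 called genes of the 9 in KO versus WT and 8 in Het versus WT, and 7050 to 8365 and 5806 to 7068 calls over all genes.

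KO versus Het, with values near 0, depended most on the setting. The 1 called gene became 0 with upper-quartile factors, a filter of 1 CPM in 3 libraries or limma on FPKM, 2 with no filter, and 0 to 2 with 1 library left out. Calls over all genes, 2556, became 1432 without KO replicate 2, 1467 without KO replicate 1 and up to 2561 with another library left out, and ran from 2166 with the replicate block to 2869 with no filter under the other settings. Dlx2 and Lhx6, at 0.00, were at 0.00 with RLE factors and DESeq2 and at -0.01 with upper-quartile factors, the 1 CPM filter, limma and only the genotypes compared. With 1 library left out, Dlx2 ran from -0.05 to 0.07, Lhx6 from -0.06 to 0.07, Sp8 from -0.06 to 0.19, Sp9 from -0.13 to 0.08 and Gad1 from -0.15 to 0.04. The cause was not tested.

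The KO minus WT difference in log2 ratio ran from 0.35 to 0.46 for Dlx1 over Dlx2, -0.83 to -0.73 for Gad1 over Gad2, 1.33 to 1.51 for Lhx6 over Gad1, 0.31 to 0.44 for Gad1 over Slc32a1 and -0.45 to 0.03 for Sp8 over Gad1, the last reversing without WT replicate 2. The cause was not tested.

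Same-numbered libraries did not deviate together (correlations of deviations -0.106 to 0.084), so the numbers do not pair them. With the replicate number as a block, 7775 genes were called in KO versus WT, 6641 in Het versus WT and 2166 in KO versus Het, and of the 9 genes 8, 8 and 1.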
